A study of Mus musculus with 26 samples.

Results

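The dystrophin glycoprotein complex was described through 8 of its genes, out of the 55341 genes listed in each count file: dystrophin (Dmd), utrophin (Utrn), dystroglycan (Dag1), the sarcoglycans Sgca, Sgcb, Sgcd and Sgce, and alpha-dystrobrevin (Dtna). The 8 genes were fixed by name and found through their Ensembl mouse gene identifiers with GENCODE symbols, a rule that uses no measured value, although the set was proposed with earlier results of these data known. RNA-Seq was performed in 26 libraries of C2C12, a mouse myoblast line that withdraws from the cell cycle and fuses into myotubes in differentiation medium. The study asked how the level of SMYD3, a lysine methyltransferase, affects this differentiation. For the knockdown, C2C12 cells received siCtrl, siSMYD3#1 or siSMYD3#2, with a first transfection before differentiation and a second at its induction, and were collected undifferentiated (0 h) or after 24 h, with 3 libraries per condition. For the overexpression, SMYD3 CL5, which is 1 clone that carries a HA- and Flag-tagged SMYD3 in a retroviral vector, was compared with a sub-cloned line that carries the empty vector (called vector), at 0 h and 24 h, with 2 libraries per condition. In each siRNA condition 1 library came from RNA extracted with TRIzol and 2 from RNA extracted with NucleoSpin, from cells of another passage, so that extraction and passage cannot be told apart. The 8 overexpression libraries were all extracted with TRIzol. As SMYD3 CL5 is 1 clone, SMYD3 and other differences between the clone and the vector line cannot be told apart in these libraries.

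The dystrophin glycoprotein complex spans the plasma membrane of muscle fibres and ties the actin cytoskeleton to the extracellular matrix. Dystrophin, or its relative utrophin, binds actin and beta-dystroglycan, while alpha-dystroglycan, made from the same Dag1 transcript, binds laminin outside the cell through its sugar chains. The sarcoglycans form a subcomplex that stabilizes dystroglycan, and alpha-dystrobrevin brings syntrophins and signalling proteins to the complex. Loss of dystrophin causes Duchenne muscular dystrophy, and loss of single sarcoglycans causes limb-girdle muscular dystrophies. Utrophin is known as the form found in immature and regenerating fibres, and Sgca as a sarcoglycan largely restricted to striated muscle, whereas Sgce, its close relative, is expressed in many tissues.

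In GRCm38, with GENCODE M21 gene models, Dmd (ENSMUSG00000045103) spans chromosome X from 82948870 to 85206141 on the plus strand. Utrn (ENSMUSG00000019820) lies on chromosome 10 from 12382188 to 12869365 and Dag1 (ENSMUSG00000039952) on chromosome 9 from 108204634 to 108263958, both on the minus strand. The sarcoglycan genes lie on the minus strand as well, Sgca (ENSMUSG00000001508) on chromosome 11 from 94962791 to 94976327, Sgcb (ENSMUSG00000029156) on chromosome 5 from 73632749 to 73647790, Sgcd (ENSMUSG00000020354) on chromosome 11 from 46896253 to 47988969 and Sgce (ENSMUSG00000004631) on chromosome 6 from 4674350 to 4747207. No member shared exon bases with another annotated gene, with the exception of Dtna (ENSMUSG00000024302), 90 of whose 16930 exon bases face a gene on the opposite strand. The strand setting of the counting is not given in the sources used here.

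The windows of 250 bases before the start of 4 members are shown because these genes responded differently to differentiation: Sgca, Dag1 and Sgcb were raised at 24 h in siCtrl cells and Sgcd was not. The sequences are those of RefSeq on GRCm38.p6, written 5′ to 3′ on the strand of the gene, with capitals for the E-box CANNTG, the motif bound by muscle regulatory factors such as MyoD and myogenin. The motif reads the same on both strands, and overlapping matches were counted. The windows are chr11:94976328-94976577 for Sgca, chr9:108263959-108264208 for Dag1 (the first of 2 listed starts), chr5:73647738-73647987 for Sgcb and chr11:47379326-47379575 for Sgcd, all on the minus strand. The start used for Sgcd lies inside the span of its GENCODE gene, which reaches further upstream.
Sgca: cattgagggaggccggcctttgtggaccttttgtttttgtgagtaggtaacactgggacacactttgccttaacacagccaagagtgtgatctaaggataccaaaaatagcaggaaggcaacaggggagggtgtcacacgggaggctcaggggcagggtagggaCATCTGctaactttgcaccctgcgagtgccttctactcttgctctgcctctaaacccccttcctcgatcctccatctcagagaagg
Dag1: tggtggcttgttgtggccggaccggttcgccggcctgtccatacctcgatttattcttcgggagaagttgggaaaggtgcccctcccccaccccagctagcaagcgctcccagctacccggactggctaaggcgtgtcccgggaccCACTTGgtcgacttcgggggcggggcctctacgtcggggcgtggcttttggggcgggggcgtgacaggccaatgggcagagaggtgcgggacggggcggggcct
Sgcb: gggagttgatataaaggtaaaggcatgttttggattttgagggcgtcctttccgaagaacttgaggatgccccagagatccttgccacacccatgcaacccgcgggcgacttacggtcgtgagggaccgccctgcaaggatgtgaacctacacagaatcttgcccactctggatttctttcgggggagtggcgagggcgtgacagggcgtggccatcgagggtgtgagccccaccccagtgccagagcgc
Sgcd: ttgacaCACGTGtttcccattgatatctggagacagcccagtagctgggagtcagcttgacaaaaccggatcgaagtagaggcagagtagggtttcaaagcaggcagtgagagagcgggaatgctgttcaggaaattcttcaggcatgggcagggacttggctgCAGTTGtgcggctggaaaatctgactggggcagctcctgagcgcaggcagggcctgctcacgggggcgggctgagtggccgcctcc
The Sgca window holds 1 E-box and the Dag1 window 1, the Sgcb window 0 and the Sgcd window 2. Among these 4 the raised genes thus did not hold more than the other. The window of Utrn, which was not called in siCtrl either, is not shown and holds 7. Its start also lies inside the span of its gene, and 0.0761% of all windows hold 7 or more. Of 32851 windows of the same length over all genes in the table, 66.2% hold at least 1 E-box. The form CAGCTG was found in 0 of 8 windows of 6 members and in 13% of all windows. A match is a description of the letters only.

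Library totals lay between 14315193 and 60398170 counts for the siRNA experiment and between 21124675 and 67853386 for the overexpression. Smyd3, the targeted gene, had 18.3 to 21.3 CPM (counts scaled to library size by TMM) in siCtrl at 24 h, 15.6 to 19.7 CPM with siSMYD3#1 and 5.46 to 9.91 CPM with siSMYD3#2. It was lower with siSMYD3#2 (log2 fold change -1.51, standard error 0.17, edgeR adjusted p = 5.06e-05), whereas the difference with siSMYD3#1 (-0.24, 95% interval -0.57 to 0.10) and that between SMYD3 CL5 and vector at 24 h (0.36, 95% interval -0.27 to 0.99) did not pass the threshold of 0.01. At 0 h SMYD3 CL5 had 16.0 and 26.1 CPM of Smyd3 against 17.7 and 15.1 CPM in vector, so that 1 of its libraries lay within the range of vector. The study examined SMYD3 by other means, which these counts do not replace. It used western blot and qPCR after knockdown, and western blot and immunofluorescence for the tagged protein of its clones. Whether the Smyd3 counts include reads of the introduced cDNA was not tested. All 8 skeletal muscle markers examined were above 3 counts in at least 1 library, with a summed level of 147 to 2592 CPM. Of the endothelial markers, Tek and Vwf rose in siCtrl at 24 h, where the list summed to 0.869 to 2.47 CPM against 0.342 to 0.525 CPM at 0 h. The osteoblast marker Dmp1 rose there too (log2 fold change 0.97, edgeR adjusted p = 0.00906), with 2.11 to 3.69 CPM for its list against 1.40 to 2.81 CPM at 0 h. The markers of adipocytes, endothelium, leukocytes, Schwann and neural cells and osteoblasts summed to at most 6.91 CPM per list, and 1 of 4, 4 of 4, 2 of 4, 2 of 4 and 3 of 4 of them passed 3 counts in some library. In bulk RNA, fewer cells of a kind and less RNA per cell cannot be told apart.

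The complex was very unevenly expressed, and dystrophin itself was nearly absent from the counts. Levels were divided by the kilobases of exon of each gene, merged over all its annotated transcripts. These lengths differ, with 1735 bases for Sgca, 8257 for Sgcd, 10612 for Sgce and 16930 for Dtna. The order between genes therefore depends on the annotation too, and the transcripts used in these cells were not determined. In siCtrl cells at 0 h the order was Dag1 with 35.2 ± 4.47 CPM per kb (SD, n = 3), Sgcb with 14.8 ± 4.85 and Utrn with 9.73 ± 0.657. Then came Sgce with 2.55 ± 0.832, Dtna with 1.87 ± 1.02, Sgca with 1.21 ± 0.443 and Sgcd with 0.821 ± 0.169. Sgcb and Utrn overlapped between libraries, as did each neighbouring pair from Sgce down to Sgcd, while Dag1 stood above Sgcb and Utrn above Sgce in every library. At 24 h the order was Dag1 (71.2 ± 6.003 CPM per kb), Sgcb (26.1 ± 5.52), Utrn (12.1 ± 0.276), Sgca (5.18 ± 0.985), Sgce (3.81 ± 0.829), Dtna (3.195 ± 1.602) and Sgcd (0.843 ± 0.178). Here Sgca per kilobase lay on average above Sgce, with which it overlapped, and below Utrn, with which it did not. In CPM without length Sgca was below Sgce, with means of 8.99 and 40.4 CPM. In SMYD3 CL5 at 0 h Sgca came after Dag1 and Sgcb, with 18.3 ± 9.96 CPM per kb (SD, n = 2), and each neighbouring pair from Dag1 down to Sgce overlapped.

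Dmd, the gene of dystrophin, had 0 counts in 20 libraries and 1 count in 4, at 0 h and 24 h alike. The remaining 2 libraries were those of SMYD3 CL5 at 24 h, with 12 and 9 counts, or 0.202 and 0.396 CPM. In the vector libraries at 24 h Dmd had 0 counts, where 3 counts would equal 0.0433 and 0.0616 CPM. With 3 counts in each of these libraries as the limit, the mean level in SMYD3 CL5 was 5.7-fold the mean limit. No lower limit was set on the SMYD3 CL5 counts. Such floors cover counting error only. The low-count filter left Dmd out of both main fits, so that it has no test there and the edgeR counts of members from these fits are out of 7. The fits without the filter did not leave it out. DESeq2 fitted it too, but gave it no adjusted p-value for SMYD3 CL5 between the times or against vector at 0 h. The gene counts do not separate the long muscle form of dystrophin from its short forms. The 2 protein-coding neighbours that follow Dmd on the chromosome with counts, Tab3 and Gk, which were looked up after the Dmd counts were seen, had from 251 to 1649 and from 142 to 1370 counts per library. Whether the assignment of reads to Dmd plays a part was not tested.

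**Figure D1:**
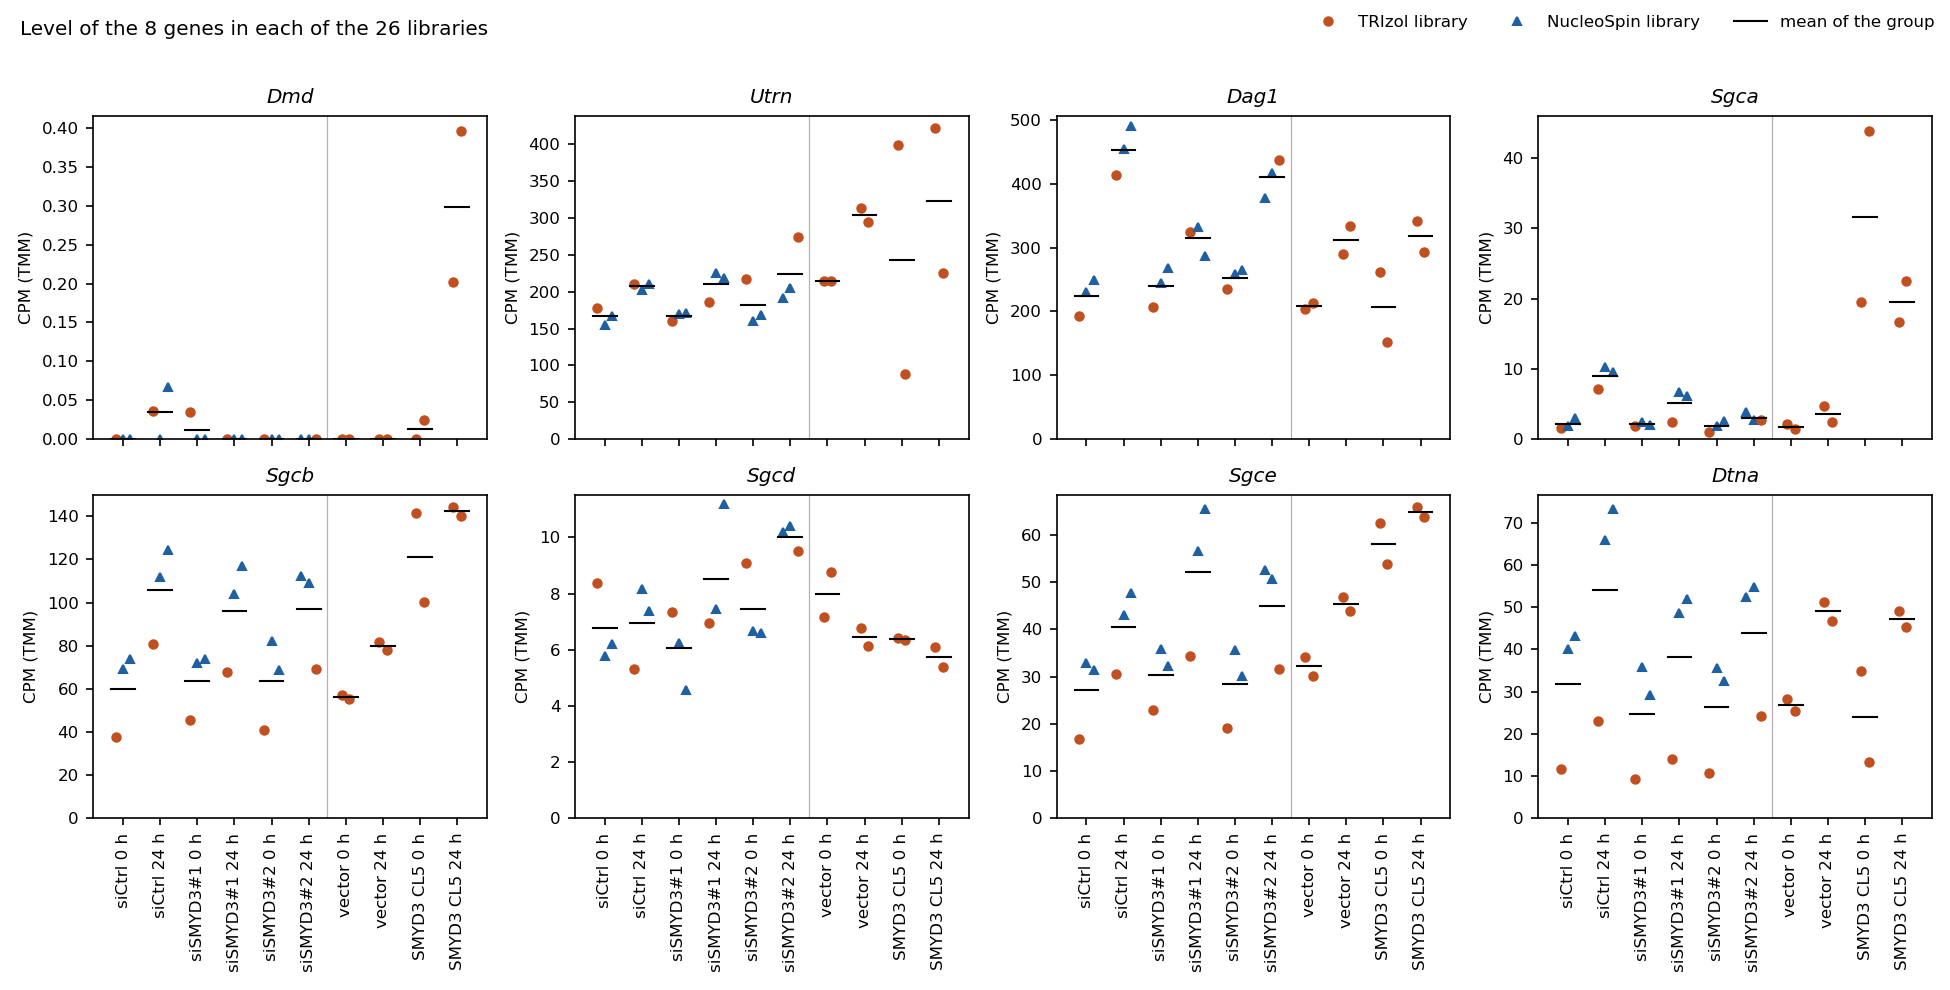
Level of each of the 8 genes in CPM (TMM-scaled, linear axis from 0, a scale per gene) in every library by condition, with circles for TRIzol and triangles for NucleoSpin libraries and a bar for the mean. Dmd lies at or under 1 count outside SMYD3 CL5 at 24 h, among the siRNA experiment's conditions Dag1 and Sgca have their highest mean in siCtrl at 24 h, and the TRIzol libraries lie lowest for Sgcb, Sgce and Dtna in each siRNA condition.

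To determine which genes of the complex change as myoblasts differentiate, siCtrl cells at 24 h were compared with siCtrl cells at 0 h. Of the 7 members tested, 5 rose and 0 fell by edgeR's quasi-likelihood test at an adjusted p-value under 0.01, against 29.4% of all genes tested (4655 of 15820). The median log2 fold change of the 7 was 0.82, against 0.03 for all genes. Dag1, which encodes the laminin-binding core of the complex, had 193, 230 and 249 CPM at 0 h and 414, 455 and 490 CPM at 24 h. All 24 h libraries lay above all 0 h libraries, and the log2 fold change was 1.03 (standard error 0.10, edgeR adjusted p = 2.97e-07). Of 8 skeletal muscle markers, 6 rose and 0 fell in the same comparison, and Myog, the gene of the muscle regulatory factor myogenin, went from 0.188, 1.14 and 1.95 CPM to 57.2, 228 and 267.5 CPM. The part of this differentiation in the values of the members was not tested.

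Sgca, alpha-sarcoglycan, showed the largest change of the 7. Its level was 1.54 CPM in the TRIzol library and 1.78 and 2.98 CPM in the NucleoSpin libraries at 0 h, and 7.06, 10.3 and 9.58 CPM in the same order at 24 h, from 41 to 230 counts. The groups did not overlap, with a log2 fold change of 2.105 (standard error 0.25, edgeR adjusted p = 2.91e-06). Sgcb, beta-sarcoglycan, rose from 37.6, 69.0 and 73.8 CPM to 81.0, 112 and 124 CPM (log2 fold change 0.86, standard error 0.09, edgeR adjusted p = 7.37e-07), again with every 24 h library above every 0 h library. Sgce, epsilon-sarcoglycan, had 16.9, 32.8 and 31.5 CPM at 0 h and 30.6, 43.0 and 47.6 CPM at 24 h. The 24 h TRIzol library fell within the range of 0 h, while the NucleoSpin libraries alone did not overlap, and the log2 fold change was 0.63 (standard error 0.10, edgeR adjusted p = 6.41e-05). The remaining sarcoglycan, Sgcd, ranged from 5.77 to 8.37 CPM at 0 h and from 5.32 to 8.17 CPM at 24 h, and its log2 fold change of 0.06 (95% interval -0.42 to 0.53) did not pass the test.

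Dtna, alpha-dystrobrevin, was the member that differed most between extractions. At 0 h it had 11.8 CPM in the TRIzol library against 40.2 and 43.1 CPM in the NucleoSpin libraries, and at 24 h 23.1 CPM against 65.9 and 73.3 CPM. Over the 6 siRNA conditions its TRIzol library lay below both NucleoSpin libraries each time, by -1.83 to -1.14 on the log2 scale. The same held in 6 of 6 conditions for Sgcb (-0.93 to -0.55) and Sgce (-0.93 to -0.56) and in 5 of 6 for Sgca. Within each extraction Dtna was higher at 24 h, and with extraction in the model it rose by a log2 fold change of 0.82 (standard error 0.12, edgeR adjusted p = 3.26e-05). Without that term Sgcb, Sgce and Dtna no longer passed, with adjusted p-values from edgeR of 0.0755, 0.209 and 0.449 and log2 fold changes of 0.83, 0.59 and 0.79, and 2 members were called.

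Utrn, the relative of dystrophin and by far the larger of the pair in counts, had 178, 155 and 166 CPM at 0 h and 210, 202 and 210 CPM at 24 h. The groups did not overlap, but the log2 fold change of 0.33 (standard error 0.12) stood on the other side of the threshold, with an edgeR adjusted p of 0.0319. In the NucleoSpin libraries alone Utrn passed, with a log2 fold change of 0.37 (edgeR adjusted p = 0.00124), as it did with siSMYD3#1 (0.38, adjusted p = 0.000878) and siSMYD3#2 (0.29, adjusted p = 0.00926).

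The same comparison was made within each siRNA. With siSMYD3#1, 5 of the 7 members rose and 0 fell, against 25.4% of all genes called, and with siSMYD3#2, 4 rose and 0 fell, against 19% of all genes. Sgcb went from 45.5, 71.8 and 73.8 CPM to 67.9, 104 and 117 CPM with siSMYD3#1, and from 40.8, 82.0 and 68.7 CPM to 69.3, 112 and 109 CPM with siSMYD3#2, the TRIzol library first. Within each extraction the 24 h libraries lay above those of 0 h, and over all libraries they overlapped. Sgcb (log2 fold changes 0.60 and 0.64 with siSMYD3#1 and siSMYD3#2), Sgce (0.76 and 0.69) and Dtna (0.63 and 0.85) rose with both siRNAs, each with a standard error of 0.09 to 0.13 and edgeR adjusted p-values from 1.46e-05 to 0.000655. Without extraction in the model none of the 3 genes passed with either siRNA, with adjusted p-values from 0.101 to 0.564 and log2 fold changes of 0.61 to 0.79. Dag1 had 207, 244 and 269 CPM at 0 h and 324, 332 and 286 CPM at 24 h with siSMYD3#1, and 235, 259 and 265 CPM and then 437, 378 and 418 CPM with siSMYD3#2, and in neither did the times overlap. It rose by 0.41 with siSMYD3#1 (standard error 0.10, edgeR adjusted p = 0.00332) and by 0.73 with siSMYD3#2 (standard error 0.10, edgeR adjusted p = 3.78e-05). The Dag1 call with siSMYD3#1 was lost in the NucleoSpin libraries alone (0.27, edgeR adjusted p = 0.0259), without the extraction covariate (adjusted p = 0.0295) and without siSMYD3#1 replicate 1 or 2 of either time, with adjusted p-values from 0.0196 to 0.0388. Sgca had 1.90, 2.48 and 1.95 CPM at 0 h and 2.38, 6.71 and 6.14 CPM at 24 h with siSMYD3#1, where the TRIzol library of 24 h fell within the range of 0 h. With siSMYD3#2 it had 1.02, 1.89 and 2.58 CPM and then 2.70, 3.83 and 2.64 CPM, with no overlap. Sgca rose by 1.17 with siSMYD3#1 (standard error 0.26, edgeR adjusted p = 0.00177), a call lost without siSMYD3#1 0 h replicate 2 or 3 or 24 h replicate 2 (adjusted p = 0.0111, 0.0158 and 0.0169), and its 0.83 with siSMYD3#2 (standard error 0.27) did not pass, with an edgeR adjusted p of 0.0267. Sgcd differed by 0.48 with siSMYD3#1 (95% interval -0.002 to 0.95) and passed in the NucleoSpin libraries alone (0.74, edgeR adjusted p = 0.00527), and by 0.46 with siSMYD3#2 (-0.01 to 0.93). Utrn showed nearly the same difference in all 3 treatments, 0.34 with siSMYD3#1 (95% interval 0.09 to 0.60) and 0.31 with siSMYD3#2 (0.06 to 0.57), neither past the threshold. Without siSMYD3#1 24 h replicate 1, Utrn was called with siSMYD3#1 (0.47, edgeR adjusted p = 0.00289).

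**Figure D2:**
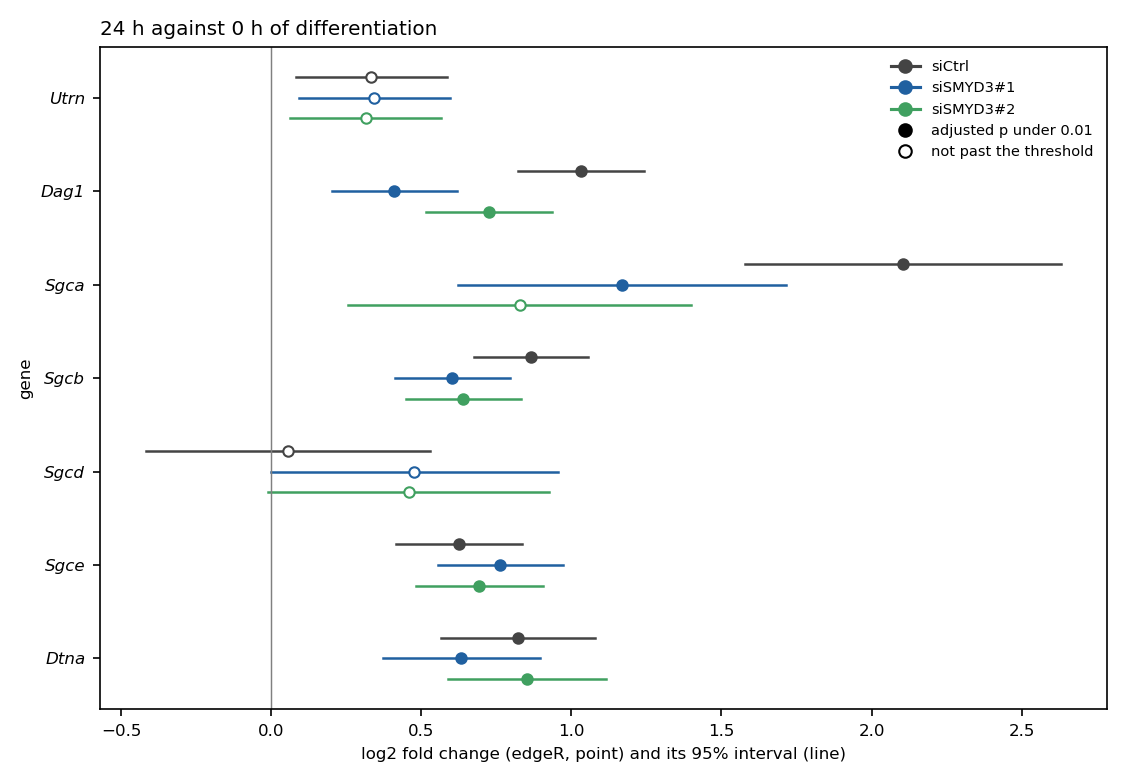
Log2 fold change between 24 h and 0 h (points, edgeR) with its 95% interval (lines) for the 7 tested genes in siCtrl, siSMYD3#1 and siSMYD3#2 cells, filled where the adjusted p-value is under 0.01. Sgca has its largest value, 2.105, in siCtrl, while the points of Sgcb, Sgce and Utrn lie close together in the 3 treatments.

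Whether SMYD3 knockdown altered the complex in differentiating cells was examined at 24 h. Against siCtrl, 2 of the 7 members fell and 0 rose with siSMYD3#1, beside 5.85% of all genes called, and 1 fell and 0 rose with siSMYD3#2, beside 3.7% of all genes. The median log2 fold changes of the 7 were -0.15 and -0.13. Dag1 and Dtna passed with siSMYD3#1 and Sgca with siSMYD3#2, while Sgca was below siCtrl in every library of both siRNAs and was called with both by DESeq2. These comparisons share the siCtrl libraries. Skeletal muscle markers moved with the treatment: 5 of 8 fell with siSMYD3#1 and 4 with siSMYD3#2, and 0 rose, with 5.75 to 20.2 CPM of Myog with siSMYD3#1 and 31.9 to 49.5 CPM with siSMYD3#2 against 57.2 to 267.5 CPM in siCtrl. Their part in the members' values was not tested. Without the extraction covariate 0 members passed with either siRNA (adjusted p = 0.0308 for Dag1, 0.939 for Dtna and 0.081 for Sgca), with log2 fold changes of -0.53, -0.51 and -1.55. The same held with all libraries in 1 fit (0.0604, 0.21 and 0.0193), with log2 fold changes of -0.52, -0.55 and -1.53.

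Dag1 had 324 CPM in the TRIzol library and 332 and 286 CPM in the NucleoSpin libraries with siSMYD3#1 at 24 h, all below the 414 to 490 CPM of siCtrl. The log2 fold change was -0.52 (standard error 0.10, edgeR adjusted p = 0.0017), and it passed in the NucleoSpin libraries alone too, but not without siCtrl 24 h replicate 3 (-0.47, adjusted p = 0.016) or siSMYD3#1 24 h replicate 3 (-0.44, adjusted p = 0.0159). With siSMYD3#2 the values were 378, 418 and 437 CPM, which overlapped with siCtrl, and the difference was -0.13 (95% interval -0.34 to 0.08). Every siSMYD3#1 library lay below every siSMYD3#2 library, and the difference between the siRNAs, -0.39 (95% interval -0.60 to -0.18), reached an edgeR adjusted p of 0.0189, on the other side of the threshold. It passed without siSMYD3#1 24 h replicate 1 (-0.49, adjusted p = 0.00695).

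Sgca had 2.38 CPM in the TRIzol library and 6.71 and 6.14 CPM in the NucleoSpin libraries with siSMYD3#1, and 2.70, 3.83 and 2.64 CPM with siSMYD3#2, all below the 7.06 to 10.3 CPM of siCtrl. The counts behind these values were 45 to 181 per library. With siSMYD3#2 the log2 fold change was -1.53 (standard error 0.25, edgeR adjusted p = 0.000895), lost without siSMYD3#2 24 h replicate 2 (-1.35, adjusted p = 0.0118). With siSMYD3#1 it was -0.90 (standard error 0.24) and did not pass with edgeR (adjusted p = 0.019), whereas DESeq2 called it (adjusted p = 0.00547). The difference between the siRNAs was 0.63 (95% interval 0.09 to 1.17, edgeR adjusted p = 0.148) and was not called.

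Dtna was at 14.1 CPM in the TRIzol library and at 48.7 and 51.8 CPM in the NucleoSpin libraries with siSMYD3#1, each lower than its siCtrl counterparts from the same extraction. The log2 fold change was -0.54 (standard error 0.12, edgeR adjusted p = 0.00614). The call passed in the NucleoSpin libraries alone and was lost when any of the 6 libraries of this comparison was left out, with adjusted p-values from 0.0129 to 0.0417, and without siCtrl 0 h replicate 2 or siSMYD3#1 0 h replicate 3 (0.0106 and 0.0102). With siSMYD3#2 the difference was -0.21 (95% interval -0.47 to 0.05).

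The remaining differences were not called. Sgce was slightly higher with siSMYD3#1 (0.34, 95% interval 0.13 to 0.55, edgeR adjusted p = 0.032), with 34.4, 56.6 and 65.4 CPM. Sgcd had 9.51 to 10.4 CPM with siSMYD3#2, above each siCtrl library, and its difference of 0.53 (95% interval 0.06 to 1.01) had an edgeR adjusted p of 0.166. For Sgcb the differences were -0.15 (95% interval -0.34 to 0.04) and -0.14 (-0.33 to 0.05), and for Utrn 0.02 (-0.23 to 0.28) and 0.10 (-0.15 to 0.36).

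At 0 h the knockdown called 0 members with either siRNA by edgeR, beside 1.43% of all genes with siSMYD3#1 and 0.531% with siSMYD3#2. At an unadjusted p-value under 0.05 the counts were 1 and 0 members, beside 2196 and 1596 of the 15820 genes tested. DESeq2 called 0 and 0 members. The member with an unadjusted p under 0.05 was Dtna, with a log2 fold change of -0.36 with siSMYD3#1 (95% interval -0.62 to -0.09, edgeR adjusted p = 0.152). Between siSMYD3#1 and siSMYD3#2 at 24 h edgeR called 0 members beside 3.36% of all genes. At an unadjusted p under 0.05 there were 3 members, beside 3513 of 15820 genes, and DESeq2 called 1, which was Dag1.

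The difference of the 24 h effect, the change from 0 h to 24 h with an siRNA minus that in siCtrl, was tested for each gene. For siSMYD3#1 edgeR called 0 members beside 0.215% of all genes, and DESeq2 called 1. At an unadjusted p under 0.05 there were 2 members, beside 1388 of 15820 genes. For siSMYD3#2 edgeR called 0 members beside 0.019% of all genes, and DESeq2 called 0. At an unadjusted p under 0.05 there were 2 members, beside 1585 of 15820 genes. The Dag1 change was smaller with siSMYD3#1 by -0.62 (95% interval -0.92 to -0.33), with an edgeR adjusted p of 0.0471 in all libraries and 0.00744 in the NucleoSpin libraries alone. The Sgca change was smaller with siSMYD3#2 by -1.28 (95% interval -2.05 to -0.51, edgeR adjusted p = 0.168) and with siSMYD3#1 by -0.94 (-1.69 to -0.18, edgeR adjusted p = 0.404).

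In differentiating siCtrl cells the balance of the related sarcoglycans Sgca and Sgce moved. Per kilobase of exon, Sgca made up 35.8% of the sum of Sgca and Sgce in the TRIzol library and 25% and 36.6% in the NucleoSpin libraries at 0 h, and 58.5%, 59.5% and 55.2% at 24 h. With siSMYD3#1 the shares at 24 h were 29.7%, 42% and 36.5%, and with siSMYD3#2 they were 34.3%, 30.8% and 24.2%. Each siRNA library at 24 h thus lay below each siCtrl library of that time, and at 24 h the TRIzol library of siCtrl lay between the NucleoSpin libraries, although its levels of both genes were lower. In vector the shares were 27.5% and 21.9% at 0 h and 38.3% and 25.1% at 24 h, so that the times overlapped. They also overlapped in SMYD3 CL5, with 65.6% and 83.3% at 0 h and 60.7% and 68.3% at 24 h. These shares combine the values of Sgca and Sgce given elsewhere in the text and were described without a test. Their size depends on the exon lengths used, 1735 bases for Sgca and 10612 for Sgce. In CPM without length, siCtrl at 24 h had a mean of 8.99 for Sgca and 40.4 for Sgce. The shares thus compare libraries and do not tell which of the genes is more abundant.

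**Figure D3:**
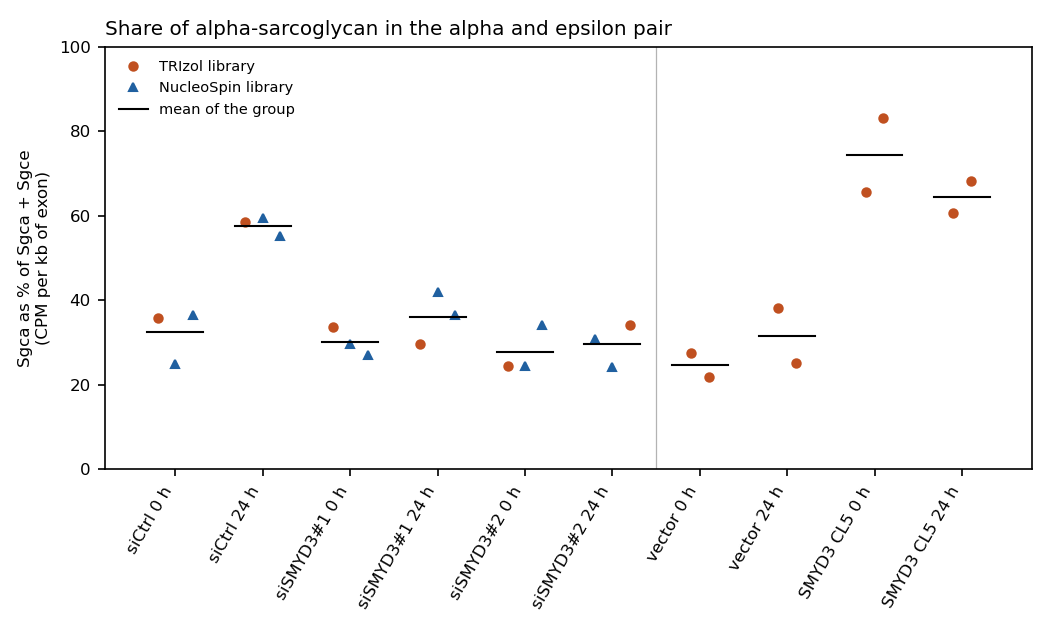
Sgca as a percentage of Sgca plus Sgce (CPM per kb of exon) in each library, with circles for TRIzol, triangles for NucleoSpin and bars for the group mean. The siCtrl libraries at 24 h lie between 55.2% and 59.5%, all siRNA libraries at 24 h between 24.2% and 42%, and the SMYD3 CL5 libraries between 60.7% and 83.3%.

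In the overexpression experiment Sgca again had the largest difference of the 7 members tested, which leave out Dmd, and it was higher in SMYD3 CL5 before differentiation. Between SMYD3 CL5 and vector at 0 h, 1 of the 7 members tested rose and 0 fell, beside 1.07% of all genes called (191 of 17835). Sgca had 2.11 and 1.38 CPM in the vector libraries and 19.4 and 43.9 CPM in those of SMYD3 CL5, with 63 to 73 against 811 to 1779 counts. The log2 fold change was 4.11 (95% interval 2.85 to 5.38, edgeR adjusted p = 0.0094). The call was lost when either vector library of 0 h or any library of 24 h was left out, with adjusted p-values from 0.0172 to 0.11, while the log2 fold change stayed between 3.85 and 4.49 in these fits. Sgcb had 57.3 and 55.2 CPM in vector and 141 and 100 CPM in SMYD3 CL5 (log2 fold change 1.03, 95% interval 0.49 to 1.57, edgeR adjusted p = 0.0559). Sgce had 34.0 and 30.2 CPM against 62.5 and 53.8 CPM (0.79, 95% interval 0.32 to 1.25, edgeR adjusted p = 0.0816). Both sarcoglycans were higher in each SMYD3 CL5 library and were called by DESeq2, with adjusted p-values of 0.00088 and 0.00665. Sgcb was also called by edgeR when SMYD3 CL5 0 h replicate 1 (0.81, adjusted p = 0.0079) or replicate 2 (1.30, adjusted p = 0.00322) was left out. Of the 8 skeletal muscle markers, edgeR called 1 at 0 h, Myog, with 15.1 and 78.9 CPM in SMYD3 CL5 against 0.26 and 0.483 CPM in vector. At an unadjusted p under 0.05 there were 8, beside 3258 of 17835 genes. Of these markers 7 were higher and 1, the myoblast factor gene Myf5, was lower in SMYD3 CL5 (log2 fold change -2.69, edgeR adjusted p = 0.0181). DESeq2 called 6 of the markers higher and 1 lower. Their part in the difference was not tested.

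At 24 h edgeR called 0 members between SMYD3 CL5 and vector, beside 0.964% of all genes, and DESeq2 called 1. At an unadjusted p under 0.05 there were 3 members, beside 2488 of 17835 genes. Sgca had 4.75 and 2.41 CPM in vector and 16.7 and 22.5 CPM in SMYD3 CL5. Its log2 fold change of 2.42 (95% interval 1.26 to 3.58) had an adjusted p of 0.0477 with edgeR and of 7.2e-05 with DESeq2. Sgcb, with 81.6 and 78.1 against 145 and 140 CPM, differed by 0.81 (95% interval 0.27 to 1.34, edgeR adjusted p = 0.136), and Sgce, with 46.8 and 44.0 against 66.0 and 63.8 CPM, by 0.49 (0.03 to 0.95, edgeR adjusted p = 0.323). When SMYD3 CL5 0 h replicate 1 or 2 was left out of the fit, Sgca (adjusted p = 0.00473 and 0.00509) and Sgcb (0.00662 and 0.00806) were called by edgeR. Of the 8 skeletal muscle markers 0 were called at 24 h by edgeR, 6 had an unadjusted p under 0.05 and 6 were called, all higher in SMYD3 CL5, by DESeq2.

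Dag1, Sgcd, Dtna and Utrn showed no called difference between SMYD3 CL5 and vector at either time. Dag1 differed by -0.08 at 0 h (95% interval -0.77 to 0.62) and by -0.0018 at 24 h (-0.69 to 0.69), and Sgcd by -0.39 (-0.98 to 0.20) and -0.19 (-0.78 to 0.40). The SMYD3 CL5 libraries of 0 h stood apart from each other: Utrn had 399 CPM in replicate 1 and 87.8 CPM in replicate 2, Dag1 262 and 152 CPM, and Dtna 34.9 and 13.2 CPM. Sgca went the other way, with 19.4 and 43.9 CPM. The 95% interval of the Utrn difference at 0 h was -1.35 to 1.58 on the log2 scale, and at 24 h, where Utrn had 422 and 225 CPM, it was -1.40 to 1.53. Without SMYD3 CL5 0 h replicate 1, Dtna was called lower in SMYD3 CL5 at 0 h (-1.04, edgeR adjusted p = 0.00636).

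Between 24 h and 0 h edgeR called 0 members and 0% of all genes in vector cells, with 1 member and 1256 genes at an unadjusted p under 0.05, and DESeq2 called 0 members and 112 genes. In SMYD3 CL5 it also called 0 members and 0% of all genes, with 1 member and 1137 genes at an unadjusted p under 0.05, and 0 members and 96 genes by DESeq2. In vector cells the log2 fold changes were 0.47 for Utrn (95% interval -0.999 to 1.93), 0.55 for Dag1 (-0.15 to 1.24) and 1.01 for Sgca (-0.155 to 2.17). They were 0.47 for Sgcb (-0.07 to 1.01), 0.46 for Sgce (0 to 0.92), 0.84 for Dtna (-0.12 to 1.795) and -0.34 for Sgcd (-0.93 to 0.24). Each of these intervals includes or touches 0. In SMYD3 CL5 the value for Sgca was -0.69 (95% interval -1.79 to 0.41) and that for Dtna 0.97 (0.01 to 1.93). Without SMYD3 CL5 0 h replicate 1 the Dtna change passed (1.83, edgeR adjusted p = 0.00347). For the difference of the 24 h effect between SMYD3 CL5 and vector, edgeR called 0 members and 0% of all genes, with 1 member and 312 genes at an unadjusted p under 0.05, and DESeq2 called 0 members and 2 genes. The member was Sgca, with a difference of -1.69 (95% interval -3.29 to -0.10, edgeR adjusted p = 0.9998).

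**Figure D4:**
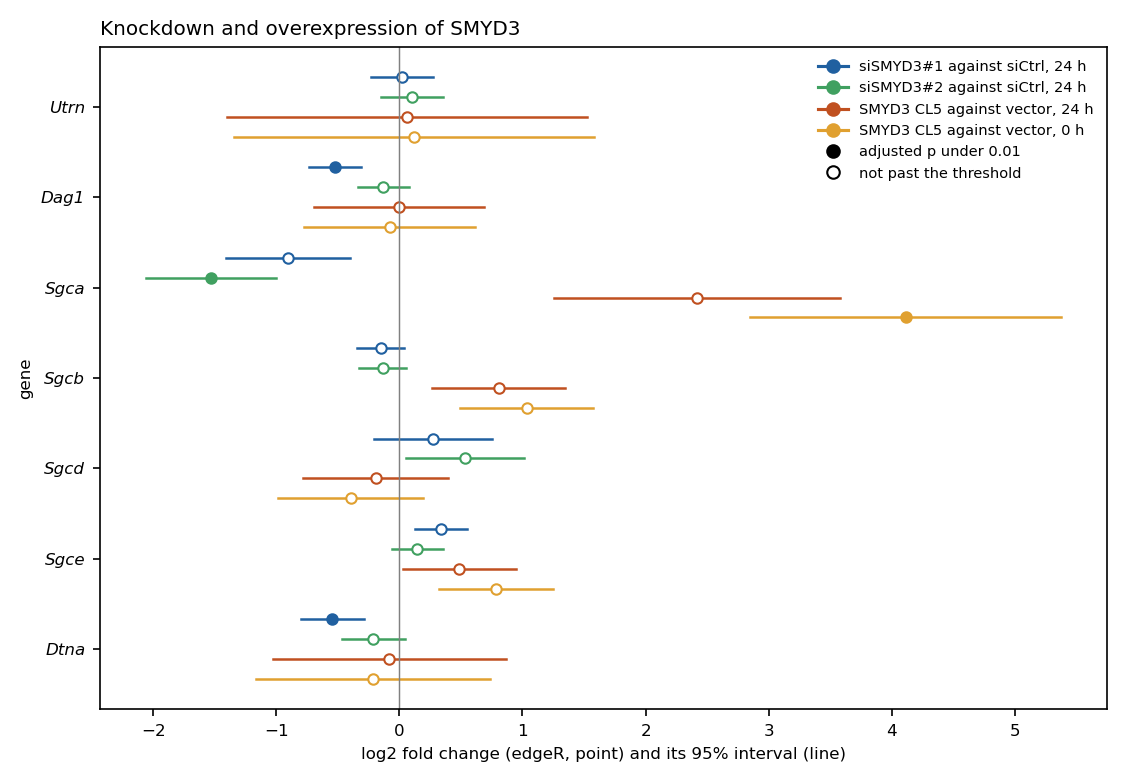
Log2 fold change (points, edgeR) with its 95% interval (lines) for the 7 tested genes in siSMYD3#1 and siSMYD3#2 against siCtrl at 24 h and in SMYD3 CL5 against vector at 24 h and 0 h, filled where the adjusted p-value is under 0.01. Sgca lies left of 0 with both siRNAs and right of 0 in SMYD3 CL5, while the intervals of Utrn cross 0 in each comparison and those of Sgcd in each but siSMYD3#2.

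Of 12 further components of the complex, 8 were tested in the siRNA fit, and 4 rose and 0 fell between 0 h and 24 h in siCtrl. Over all 15820 genes tested, 2309 rose and 2346 fell in that comparison. The siCtrl counts of the lists that follow are to be read beside these. Among them, Sntb1, beta-1-syntrophin, rose in siCtrl by 1.84 (edgeR adjusted p = 6.72e-05) and was lower with siSMYD3#1 at 24 h by -1.61 (edgeR adjusted p = 0.00118). Drp2, a dystrophin-related protein, rose by 0.96 in siCtrl (edgeR adjusted p = 0.00061). Sspn, sarcospan, a membrane partner of the sarcoglycans, rose by 0.90 in siCtrl (edgeR adjusted p = 4.60e-05), was higher with siSMYD3#1 than with siCtrl at 24 h by 0.67 (edgeR adjusted p = 0.00316) and differed by 1.00 between the siRNAs (edgeR adjusted p = 0.000235). Sspn had 63.0, 142 and 169 CPM with siSMYD3#1 and 46.7 to 65.8 CPM with siSMYD3#2. In the list as a whole, siSMYD3#1 raised 1 gene and lowered 3 at 24 h, and siSMYD3#2 raised 0 and lowered 1. Of all genes tested, 5.85% and 3.7% were called in these comparisons. Sntb2, beta-2-syntrophin, was also lowered with siSMYD3#1 (-0.64, edgeR adjusted p = 0.00013) and is named for completeness of the count after its value was seen. Dtnb, beta-dystrobrevin, did not pass against siCtrl at 24 h, with differences of 0.14 (95% interval -0.16 to 0.44) for siSMYD3#1 and of 0.18 (-0.12 to 0.48) for siSMYD3#2. In SMYD3 CL5 against vector, 9 of the 12 were tested, and 1 rose and 0 fell at each time. Of all genes tested, 1.07% were called at 0 h and 0.964% at 24 h.

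Among 10 matrix ligands of dystroglycan, 9 were tested, and Lama2, the laminin chain of the muscle basement membrane, was the gene that rose in siCtrl (log2 fold change 2.61, edgeR adjusted p = 4.95e-10). Lama2 had 7.13 to 8.33 CPM at 0 h and 46.6 to 48.6 CPM at 24 h, and at 24 h it was lower with siSMYD3#1 by -1.35 (edgeR adjusted p = 6.27e-06) and with siSMYD3#2 by -0.86 (edgeR adjusted p = 0.00082). Bgn, the proteoglycan biglycan, was higher with siSMYD3#1 by 0.97 (edgeR adjusted p = 7.41e-06). In SMYD3 CL5 it had 35.1 and 36.3 CPM at 24 h against 1137 and 1112 CPM in vector (-5.01, edgeR adjusted p = 0.00161). Lama2 was higher in SMYD3 CL5 at 0 h, with 137 and 54.7 CPM against 7.70 and 6.45 CPM (3.70, edgeR adjusted p = 0.00782). With siSMYD3#1, 7 ligands rose between 0 h and 24 h, against 1 in siCtrl and 1 with siSMYD3#2, a difference between lists that was not tested. Of all 15820 genes tested, 2012 rose with siSMYD3#1, 2309 in siCtrl and 1441 with siSMYD3#2. Of 18 genes of alpha-dystroglycan glycosylation, 17 were tested and 2 rose in siCtrl, where 29.4% of all genes were called in either direction, among them B4gat1 (0.46, edgeR adjusted p = 9.82e-05), most of whose exon bases, 1967 of 2306, are shared with another gene on the same strand. With siSMYD3#1, 2 were higher than in siCtrl at 24 h, beside 5.85% of all genes called. They were Pomk (0.50, edgeR adjusted p = 0.00328) and Pomgnt1 (0.32, edgeR adjusted p = 0.00803). With siSMYD3#2 edgeR called 0, with 4 at an unadjusted p under 0.05 beside 3530 of 15820 genes, and DESeq2 called 1 higher and 1 lower.

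Of 8 cytoskeletal linkers, 2 rose and 0 fell in siCtrl, beside the same 29.4% of all genes. They were Sync (1.28, edgeR adjusted p = 2.91e-05) and the intermediate filament gene Des (0.71, edgeR adjusted p = 9.58e-05). With siSMYD3#1 and siSMYD3#2 at 24 h edgeR called 0, with 3 and 3 at an unadjusted p under 0.05 beside 3815 and 3530 of 15820 genes. DESeq2 called 0 with siSMYD3#1 and 1 higher and 1 lower with siSMYD3#2. Of 11 genes of the integrin costamere and membrane repair, 4 rose in siCtrl, beside 29.4% of all genes called. Among them were Itga7, the alpha chain of the muscle laminin receptor (1.10, edgeR adjusted p = 3.81e-07), and Dysf, dysferlin (0.97, edgeR adjusted p = 4.21e-05). With siSMYD3#1 both were lower at 24 h, by -0.57 and -0.70 (edgeR adjusted p = 0.00164 and 0.00421), and Itgb1, the integrin beta chain, was higher by 0.65 (edgeR adjusted p = 3.50e-05). Itgb1 was also higher with siSMYD3#2, by 0.43 (edgeR adjusted p = 0.00267). The other genes of this list that passed, Itgb1bp2 and Trim72, had too few counts for the naming rule and are given because of the small count. Both rose in siCtrl (2.85 and 5.13) and were lower with siSMYD3#1 (-2.31 and -2.62), and Trim72 also with siSMYD3#2 (-2.07), with edgeR adjusted p-values from 4.38e-07 to 0.00377. These lists were described by their counts and received no set test.

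Across the 26 libraries, which share conditions, extractions and depth, the members did not vary as a single block. Sgcb and Sgce were the closest pair (Pearson's r of log2 CPM 0.94), followed by Sgca with Sgcb (0.80) and Sgca with Sgce (0.75), while Sgcd had r between -0.22 and 0.19 with each of the others. Utrn had r between 0.07 and 0.46. With Myog, the gene of myogenin, r was 0.86 for Sgcb, 0.78 for Sgca, 0.76 for Sgce, 0.69 for Dag1, 0.57 for Dtna, 0.24 for Utrn and 0.04 for Sgcd. Among 12980 genes with a mean of at least 1 CPM, the 2 most similar in pattern were Nrap (0.937) and Rtn2 (0.927) for Sgca, Gfra1 (0.917) and Pacs2 (0.914) for Dag1, and Rev3l (0.956) and Zbtb20 (0.94) for Utrn. For Dtna they were Rnf11 (0.953) and Fam13c (0.952), for Sgcb Gm44250 (0.946) and Sgce (0.942), for Sgce Gm44250 (0.951) and Cd200 (0.951), and for Sgcd B3galnt2 (0.724) and Ascc2 (0.679). These values are descriptions over libraries that fall into groups, and no test was applied.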

How the data were processed

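RNA-Seq counts of 26 C2C12 libraries were analysed. Per the submitters' processing notes and the study's methods, the authors prepared stranded paired-end libraries, checked reads with FastQC 0.11.5, aligned them to GRCm38 with HISAT2 2.1.0 and counted them with featureCounts (Subread 1.6.3). They deposited raw counts per gene, not normalized. The annotation release, the strand setting and the handling of reads with several positions are not given in the sources used here. Of 55341 genes per library, 54495 matched GENCODE M21, which gave symbols, coordinates and exon lengths.

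Condition came from the public labels. Extraction, and the replicate numbers used for pairing, came from the study's sample table. The replicate numbers printed for left-out libraries follow the deposited order within a condition and can differ from those of the study. In that order the TRIzol library is replicate 1 of each siRNA condition, except siSMYD3#2 at 24 h, where it is replicate 3. The labels do not say whether replicates are separate cultures, and the study calls them biological replicates, so p-values measure the spread between these libraries.

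Counts were fitted in R 4.3.3 with edgeR 4.0.16 (filterByExpr, TMM, robust quasi-likelihood test, Benjamini-Hochberg adjustment over all genes tested, threshold 0.01, the study's own). The siRNA fit held 18 libraries in 6 groups with extraction as covariate (15820 genes), and the overexpression fit 8 libraries in 4 groups (17835 genes). A standard error is the log2 fold change divided by the square root of F, and 95% intervals use the degrees of freedom of the test. Levels are CPM scaled by TMM over all 26 libraries. Where genes are compared, they are divided by the kilobases of exon merged over all annotated transcripts. Alternatives were DESeq2 1.42.0, its size factors, no low-count filter, an adjusted p under 0.05, a replicate block, no extraction covariate, NucleoSpin libraries only, 1 fit of all libraries and leaving out each library. The reported fits did not pair libraries, and only the replicate block used the numbers of the sample table as pairs. Same-numbered siRNA libraries deviated together over all 18 (correlations of 0.301 to 0.837), where the TRIzol libraries share a number. Within NucleoSpin the correlations were -0.086 to 0.144. The fits were tested on simulated data.

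The 8 genes and the related lists were chosen with earlier results of these data known. Related genes were named by rule: per list, up to 3 with the largest change among those past the threshold with at least 100 counts on average, in siCtrl 24 h against 0 h, each siRNA against siCtrl at 24 h and SMYD3 CL5 against vector at 24 h, besides Sspn and Dtnb. Some genes of these lists are not reported here, although the counts per list include them.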

Additional observations from a re-analysis of the deposited data

Results flagged for a closer look

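Dmd drew attention as a member that entered neither fit, since its counts did not pass the low-count filter, and yet reached 12 and 9 counts at 24 h in SMYD3 CL5, above the 0 counts of both vector libraries of that time. Fitted without the filter, edgeR gave Dmd an adjusted p of 0.00534 for SMYD3 CL5 against vector at 24 h, while DESeq2 gave 0.0951. The gene and the comparison were picked after these counts were seen, so neither value is independent support. Removing the filter also moved the edgeR adjusted p of Sgca in this comparison, from 0.0477 to 1.81e-09. The members were otherwise measured in groups of 2 or 3 libraries, which are too small for a check of single outlying libraries.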

How the results depend on the processing

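Of 2310 recomputed log2 fold changes of single members, 2226 kept their side of the threshold, 46 lost and 38 gained it, and 0 reversed. Of 330 recomputed counts of members called, 285 stayed within 1.5 times the reported count. Without the extraction covariate the counts between 24 h and 0 h were 2 in siCtrl, 0 with siSMYD3#1 and 1 with siSMYD3#2, and those against siCtrl at 24 h were 0 and 0. With all libraries in 1 fit they were 2 for siSMYD3#1 between the times, 0 and 0 against siCtrl at 24 h, and 2 and 3 for SMYD3 CL5 against vector at 24 h and 0 h. At an adjusted p under 0.05 there were 4 for siSMYD3#1 against siCtrl, and 1 each for siSMYD3#1 against siSMYD3#2, for its 24 h effect minus that of siCtrl and for SMYD3 CL5 against vector at 24 h. DESeq2 gave 1, 1 and 1 for these 3 and 3 for SMYD3 CL5 at 0 h. No low-count filter gave 1, 1 and 2, where the 2 were Sgca and Dmd, which has no test in the main fits. NucleoSpin libraries alone gave 1 (Dag1) for the siSMYD3#1 24 h effect minus that of siCtrl. For these differences the cause was not tested, and the shares of all genes called in these fits are not given here.

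Leaving out 1 library moved the counts from 3 to 5 for siSMYD3#1 between the times, 0 to 2 and 0 to 1 for siSMYD3#1 and siSMYD3#2 against siCtrl at 24 h, 0 to 1 between the siRNAs, 0 to 1 for SMYD3 CL5 between the times, and 0 to 2 and 0 to 3 for SMYD3 CL5 against vector at 24 h and 0 h. In the other comparisons the counts stayed as reported. The replicate block changed no call of a member in any comparison. In the overexpression libraries the same-numbered correlations were -0.097 to 0.471 over 2 numbers, which share only a number. Sgca rests on 21 to 230 counts per siRNA library, and with 2 libraries per condition intervals of the overexpression values are wide.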
